A study of Mus musculus with 4 samples.

Results

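The 75 genes described here encode mitochondrial ribosomal proteins. They are the genes of the deposited table whose symbol is Mrpl or Mrps followed by a digit, 75 of 20207 genes, of which 46 carry a large subunit symbol (Mrpl) and 29 a small subunit symbol (Mrps). RNA came from LSK cells (negative for lineage markers, positive for Sca-1 and Kit), the fraction with blood stem and multipotent progenitor cells, sorted from mouse fetal liver at E14.5. The groups were Brpf1-null and wild-type, each labelled as 2 samples of about 10000 cells, every sample a pool of cells from 4 embryos. Brpf1 encodes a scaffold of histone acetyltransferase complexes. The sources used here do not give the allele, the strain or any Cre driver of the Brpf1-null embryos, nor what the wild-type embryos carried beyond that label.

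The tables of the 2 sample pairs held the same values for all 20207 genes, which leaves a single set of values for each genotype. It is called a library here, and whether it comes from 1 pair or from both merged is not known. No difference below has a replicate check. The spacing of low values placed the libraries at about 22220558 reads for Brpf1-null and 23646633 for wild-type. Ranges in brackets after a fold are 95% exact (Clopper-Pearson) counting intervals. They cover counting error only, not the spread between embryos, and reads that are PCR copies make them too narrow. Brpf1 itself was at 2.15 RPKM (reads scaled by gene length and library size) in the Brpf1-null library and 2.59 RPKM in the wild-type library, 1.20-fold lower (1.00 to 1.44). That checks the label only weakly, since the allele is not given here and the gene has a single value per library. Of the gate's own genes, Kit was at 21.3 RPKM in the Brpf1-null and 25.6 RPKM in the wild-type library, and Ly6a, which encodes Sca-1, at 9.51 and 10.6 RPKM. The progenitor genes Cd34 and Flt3 were at 179 and 33.1 RPKM in the Brpf1-null and 117 and 22.9 RPKM in the wild-type library. The summed RPKM of 12 hepatocyte markers was 546 in the Brpf1-null and 2084 in the wild-type library, of 10 erythroid markers 400 and 1587, and of 7 B-lineage markers 83.4 and 269. Each of these markers was lower in the Brpf1-null than in the wild-type library by more than 1.5-fold, and of the markers under the filter Apob was at 0 in the Brpf1-null and 0.301 RPKM in the wild-type library and Pax5 at 0 in both. The part of these other cells in the values below was not tested, and fewer cells of a type and less RNA per cell cannot be told apart in bulk RNA.

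Mitochondria keep a ribosome of their own that makes a small set of membrane subunits of the respiratory chain and ATP synthase from mitochondrial mRNAs. Its ribosomal RNAs come from mitochondrial DNA, while all of its proteins are encoded in the nucleus, made in the cytosol and imported. Part of the proteins descend from bacterial ribosomal proteins and part arose in the mitochondrial lineage. The fetal liver is where blood stem and progenitor cells expand before birth. Symbols do not always give the place in the particle: in structures of mammalian mitoribosomes the products of Mrps30 and Mrps18a lie in the large subunit, and Mrps36 encodes a component of the alpha-ketoglutarate dehydrogenase complex.

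The mitochondrial ribosomal protein genes were mostly expressed at close to the same levels in both libraries, with 9 of the 75 past 1.5-fold. All 75 reached the filter on low values, a mean of 1 RPKM over both libraries. A pseudocount of 1 RPKM was added before taking the log2 ratio of Brpf1-null over wild-type, so that changes of low genes are understated, and a gene was called past 1.5-fold on that scale. Relative to wild-type, 5 of the 75 genes (6.67%) were higher by that bound, 4 (5.33%) were lower and 66 (88.0%) lay inside it. Among all 9380 genes that reached the filter, 14.1% were higher and 9.42% lower by that much, so both shares among the members were under the background. With the trend on transcript GC content removed, 9 members were lower, a share above the 9.49% of all genes under that setting, and without a filter on low values the share of all genes that were lower was 5.34%, about that of the members. At 2-fold the counts were 2 higher, Mrps27 and Mrps35, and 1 lower, Mrpl52, beside 4.14% higher and 3.46% lower among all genes. Without the pseudocount, 36 members (48.0%) lay within 1.1-fold, against 20.7% of those 9380 genes. That contrast is not matched for level. The median level was 46.2 RPKM in the Brpf1-null and 55.7 RPKM in the wild-type library for the members, and 7.19 and 6.58 RPKM for the 9380 genes.

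The median log2 change of the members was −0.05, beside 0.04 over all 9380 genes, with 26 members above 0 and 49 below. Centring each library on its median moved both, to −0.16 for the members and −0.07 for all genes. The summed level of the 75 genes was 5095 RPKM in the Brpf1-null library and 5328 RPKM in the wild-type library, which was 1.496% and 1.471% of all RPKM. The counting interval excluded a fold of 1 for 15 members above it and 28 below it, 43 of the 75. It did so for 6703 of all 9380 genes that reached the filter, 122 of which had no interval. Over 50 RPKM the counts were 16 of 38 members and 929 of 1138 genes. Differences larger than counting error were thus less frequent among the members than among all genes. Their size against the spread between embryos is not known.

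**Figure D1:**
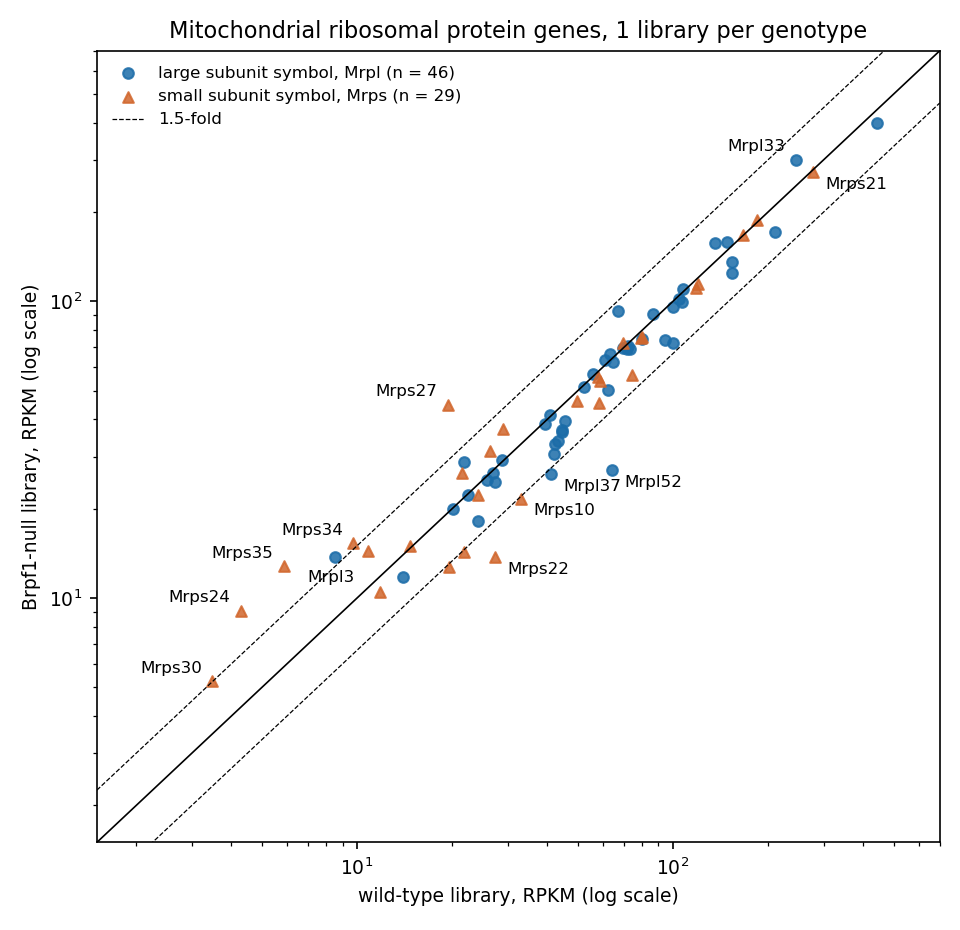
Level of each mitochondrial ribosomal protein gene in the Brpf1-null library (vertical) against the wild-type library (horizontal), both in RPKM on log axes, with circles for Mrpl and triangles for Mrps genes; the solid line marks equal values and the dashed lines 1.5-fold. Points lie along the solid line from 3.48 to 443 RPKM, and those outside the dashed lines are mostly triangles. No pseudocount is added here, so Mrps30, Mrps15 and Mrps6 also lie outside the dashed lines though they were not called.

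Levels spanned a wide range within each library, although the proteins are built into a shared particle. In the Brpf1-null library they ran from 5.24 RPKM (Mrps30) to 400.5 RPKM (Mrpl18) with a median of 46.2 RPKM, and in the wild-type library from 3.48 to 443 RPKM with the same genes at the ends and a median of 55.7 RPKM. The 6 most abundant by mean were Mrpl18, Mrps21, Mrpl33, Mrpl28, Mrps33 and Mrps18c. Mrpl18, the counterpart of a bacterial protein of the large subunit's central protuberance, was at 400.5 RPKM in the Brpf1-null and 443 RPKM in the wild-type library. Mrps21 was at 272 and 278 RPKM, and Mrpl33 at 301 RPKM in the Brpf1-null against 245 RPKM in the wild-type library. The same gene led both libraries, but Mrps21 and Mrpl33 changed places behind it. Mrpl28 was at 171 RPKM in the Brpf1-null and 210 RPKM in the wild-type library, 1.23-fold lower (1.18 to 1.28). Mrps33 was at 189 RPKM in the Brpf1-null and 185 RPKM in the wild-type library, and Mrps18c at 167 RPKM in both. The levels of Mrpl18, Mrps21, Mrpl33 and Mrps18c are uncertain, because near-identical copies, processed pseudogenes for all but Mrpl33, could share their reads.

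The most abundant members were also the closest between the libraries. None of the 38 members with a mean over 50 RPKM was past 1.5-fold in either direction, beside 5.98% higher and 6.59% lower among the 1138 genes of the whole table at that level. Of the 25 members between 20 and 50 RPKM, 1 was higher (4%) and 4 were lower (16%), beside 13.9% higher and 8.83% lower of the 1223 genes at that level. Of the 12 members up to 20 RPKM, 4 were higher (33.3%) and 0 lower, beside 15.5% higher and 9.99% lower of 7019 genes. The share of lower genes in the middle bin and of higher genes in the low bin were thus above those of all genes, on counts of 4 each. These level bounds were chosen after the values were seen. Across the 75 genes, which share both libraries and are not independent replicates, the size of the change fell with the mean level (Spearman rho = −0.37). Across all 9258 kept genes with a matched transcript length the same rho was −0.05.

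Among the 5 members that were higher, 4 have small subunit symbols. Mrps27, a mitochondria-specific small subunit protein of the pentatricopeptide repeat class, was at 44.9 RPKM in the Brpf1-null library and 19.4 RPKM in the wild-type library, 2.32-fold higher (2.13 to 2.52). Mrps35, another mitochondria-specific small subunit protein, was at 12.8 RPKM in the Brpf1-null and 5.86 RPKM in the wild-type library, 2.18-fold higher (1.97 to 2.41). Mrps24, the counterpart of a bacterial small subunit protein at the mRNA entry, was at 9.07 and 4.28 RPKM, 2.12-fold higher (1.66 to 2.72) from about 201 Brpf1-null and 101 wild-type reads. These 3 genes held the highest changes of all 75. The only large subunit gene in the group, Mrpl3, encodes the counterpart of a bacterial protein that reaches towards the peptidyl transferase centre. It was at 13.8 RPKM in the Brpf1-null and 8.53 RPKM in the wild-type library, 1.62-fold higher (1.46 to 1.79). Mrps34 was at 15.3 and 9.74 RPKM, 1.57-fold higher (1.31 to 1.87), but 63.4% of its exonic bases are shared with Mapk8ip3 on the opposite strand and 37.0% with Nme3 on the same strand, so its reads are uncertain without stated strand counting. Mapk8ip3 was at 5.88 RPKM in the Brpf1-null and 3.11 RPKM in the wild-type library, and Nme3 at 14.4 and 18.4 RPKM. Of the exonic bases of Mrps27, 24.2% lie opposite a non-coding transcript, 6430562O15Rik. Of those of Mrps24, 15.4% are shared with Urgcp on the same strand. Urgcp was at 1.73 RPKM in the Brpf1-null and 0.752 RPKM in the wild-type library.

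The next 5 members by log2 change were inside the 1.5-fold bound. Mrps30, the least abundant member, was at 5.24 RPKM in the Brpf1-null and 3.48 RPKM in the wild-type library, a log2 change of 0.48. Without the pseudocount it was 1.503-fold higher (1.29 to 1.76). Mrpl14 was at 92.5 and 67.3 RPKM, and Mrpl49 at 28.8 RPKM in the Brpf1-null against 21.9 RPKM in the wild-type library. Mrps26 was at 14.4 and 10.9 RPKM, and Mrps7, the counterpart of the bacterial protein that starts assembly of the small subunit's head, at 37.1 and 29.0 RPKM. The counting intervals of all 5 folds lay above 1.

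The 4 members that were lower were 2 of each subunit by symbol. Mrpl52, a mitochondria-specific large subunit protein, was at 27.0 RPKM in the Brpf1-null library and 64.2 RPKM in the wild-type library, 2.38-fold lower (2.05 to 2.76), the lowest change of the 75. Mrps22, a mitochondria-specific small subunit protein whose human gene is mutated in a mitochondrial disease of infants, was at 13.8 RPKM in the Brpf1-null and 27.3 RPKM in the wild-type library, 1.98-fold lower (1.75 to 2.25). Mrpl37 was at 26.2 and 41.2 RPKM, 1.57-fold lower (1.44 to 1.71). Mrps10, the counterpart of a bacterial small subunit protein, was at 21.6 RPKM in the Brpf1-null and 33.1 RPKM in the wild-type library, 1.53-fold lower (1.37 to 1.72), and has a processed pseudogene that is 98.4% identical over 50.05% of its transcript. The groups of higher and lower genes thus both held mitochondria-specific proteins and bacterial counterparts.

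A pair of small subunit genes sat just inside the 1.5-fold bound. Mrps15 was at 12.7 RPKM in the Brpf1-null and 19.6 RPKM in the wild-type library, a log2 change of −0.58 and 1.54-fold lower (1.31 to 1.80) without the pseudocount. Mrps6 was at 14.3 and 21.8 RPKM, 1.53-fold lower (1.31 to 1.79). With a pseudocount of 0.1 both passed the bound and the number of lower members was 6. The next 4 were Mrpl54 at 72.6 RPKM in the Brpf1-null and 100.1 RPKM in the wild-type library, Mrpl39 at 30.5 and 41.9 RPKM, Mrpl38 at 18.2 and 24.2 RPKM, and Mrps12 at 56.6 and 74.0 RPKM. Each of these 4 had a counting interval below 1.

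**Figure D2:**
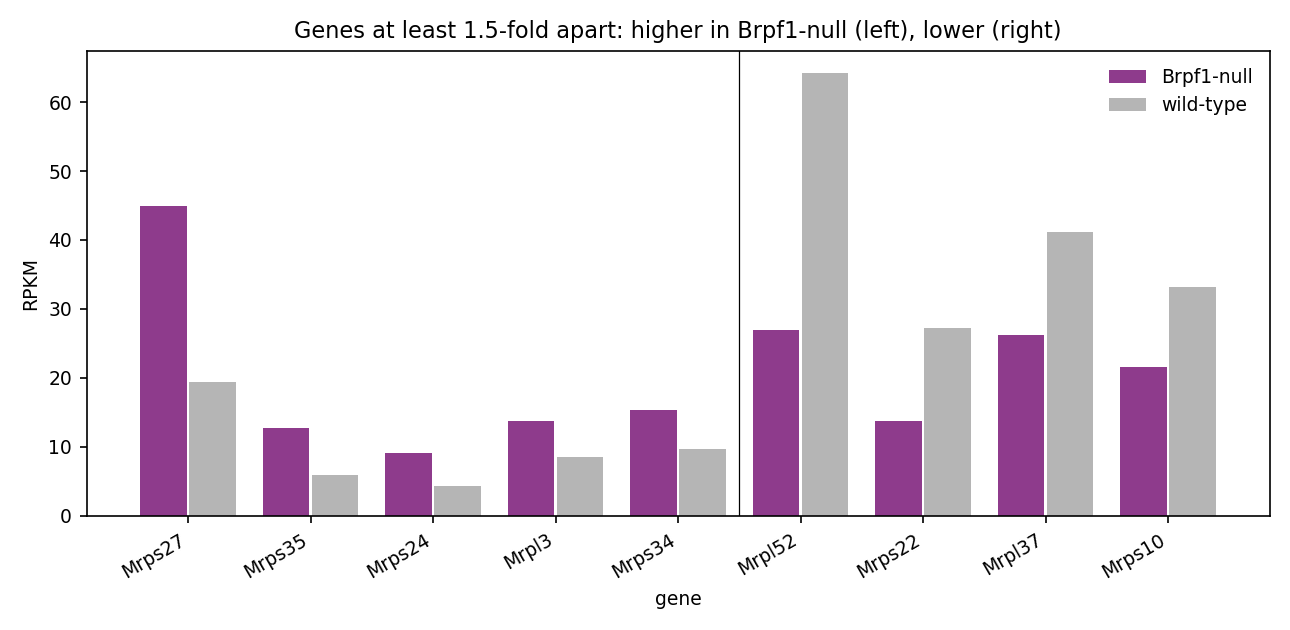
RPKM of the 9 genes past 1.5-fold in the Brpf1-null library (purple, left bar of each pair) and the wild-type library (grey, right bar), 1 library per genotype and no error bars. The 5 higher genes stand left of the vertical line, with Mrps27 at 44.9 against 19.4 RPKM, and the 4 lower genes right of it, with Mrpl52 at 27.0 against 64.2 RPKM.

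The promoters of genes that moved in opposite directions are set side by side here. RefSeq promoters (GRCm38.p6, 250 bases before to 50 bases after the start) were available for 66 of the 75 genes, and were searched on both strands for CCGGAAG, an ETS family motif, for the NRF1 motif, whose letters are the capitals of the Mrpl32 promoter, and for the YY1 motif, whose letters are the capitals of the Mrpl37 promoter. All 3 are known from promoters of nuclear genes for mitochondrial proteins, and the last letters of the ETS motif, AAG, are the first of the YY1 motif, so that these can overlap. Capitals mark the motif matches. Of the genes past 1.5-fold, those shown were chosen for having a match. Mrps24, which was higher, and Mrps10, which was lower, had promoters without a match and are not shown. In Mrps27 an ETS match begins 48 bases before the start, on the reverse strand, and a YY1 match at base 15 from the start. In Mrpl3 an ETS match begins 19 bases before the start. The first pair are genes that were higher in the Brpf1-null library.
Mrps27, chr13:99344536-99344835, plus strand: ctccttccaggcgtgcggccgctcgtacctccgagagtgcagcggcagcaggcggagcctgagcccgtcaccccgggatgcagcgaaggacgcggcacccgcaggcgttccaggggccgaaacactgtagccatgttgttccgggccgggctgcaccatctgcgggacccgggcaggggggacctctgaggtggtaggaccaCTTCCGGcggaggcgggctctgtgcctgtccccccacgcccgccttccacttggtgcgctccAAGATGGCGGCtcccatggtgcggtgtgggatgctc
Mrpl3, chr9:105053018-105053317, plus strand: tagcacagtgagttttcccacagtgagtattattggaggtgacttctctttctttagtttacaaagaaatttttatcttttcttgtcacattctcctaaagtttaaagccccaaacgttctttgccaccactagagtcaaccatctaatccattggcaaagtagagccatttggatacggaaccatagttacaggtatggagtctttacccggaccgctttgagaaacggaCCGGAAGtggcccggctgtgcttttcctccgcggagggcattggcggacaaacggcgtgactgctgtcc
The next group are genes that were lower. In Mrpl52 ETS matches begin 47 bases before the start and at base 3, both on the reverse strand, in Mrps22 an ETS match begins 11 bases before the start, and in Mrpl37 a YY1 match begins at base 27.
Mrpl52, chr14:54426659-54426958, plus strand: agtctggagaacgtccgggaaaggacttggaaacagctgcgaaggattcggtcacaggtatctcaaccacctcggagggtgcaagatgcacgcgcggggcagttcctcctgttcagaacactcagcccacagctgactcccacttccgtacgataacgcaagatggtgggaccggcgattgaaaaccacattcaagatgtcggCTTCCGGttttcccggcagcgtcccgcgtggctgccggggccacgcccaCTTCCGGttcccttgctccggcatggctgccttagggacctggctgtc
Mrps22, chr9:98601630-98601929, minus strand: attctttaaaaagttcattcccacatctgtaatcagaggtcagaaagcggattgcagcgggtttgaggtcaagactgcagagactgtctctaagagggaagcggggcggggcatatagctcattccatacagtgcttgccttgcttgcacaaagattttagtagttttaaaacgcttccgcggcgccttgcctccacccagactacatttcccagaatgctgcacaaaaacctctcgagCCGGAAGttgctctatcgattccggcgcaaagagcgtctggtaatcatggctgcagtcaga
Mrpl37, chr4:107066817-107067116, minus strand: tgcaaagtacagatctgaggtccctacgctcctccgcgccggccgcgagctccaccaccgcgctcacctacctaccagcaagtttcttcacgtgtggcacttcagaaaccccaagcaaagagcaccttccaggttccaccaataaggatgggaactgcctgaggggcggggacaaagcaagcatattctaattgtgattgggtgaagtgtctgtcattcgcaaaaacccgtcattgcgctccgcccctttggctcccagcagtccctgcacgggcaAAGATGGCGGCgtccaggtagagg
An NRF1 match is shown from Mrpl32, chosen for that match and at 39.5 RPKM in the Brpf1-null and 45.6 RPKM in the wild-type library, where it begins 87 bases before the start.
Mrpl32, chr13:14612988-14613287, minus strand: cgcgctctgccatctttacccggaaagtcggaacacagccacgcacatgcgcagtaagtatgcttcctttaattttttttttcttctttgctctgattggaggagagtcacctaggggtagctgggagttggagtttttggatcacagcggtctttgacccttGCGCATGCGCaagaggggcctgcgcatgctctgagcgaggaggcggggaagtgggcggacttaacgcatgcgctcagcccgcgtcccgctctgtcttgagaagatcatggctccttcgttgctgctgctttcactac

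Of the 66 genes with a promoter, 24 (36.4%) held the ETS motif, 5 (7.58%) the YY1 motif and 3 (4.55%) the NRF1 motif, and 30 (45.5%) held at least 1 of them. Over all 27025 genes with a promoter in the table the shares were 9.93%, 0.755% and 1.07%, and 11.3% held at least 1. Among the 6591 genes with a promoter that reached the filter they were 22.4%, 2.14%, 2.64% and 26.1%. A match was found for 2 of the 3 higher genes with a promoter, for 3 of the 4 lower genes and for 25 of the 59 others, so matches occurred in genes of both directions. The median log2 change was −0.06 for the 30 genes with a match and −0.04 for those without. A match is a description of the letters and not of binding, and the other 9 genes were not in the promoter table.

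Large and small subunit genes had nearly the same median change and a different spread. The median log2 change was −0.05 for the 46 Mrpl genes and −0.05 for the 29 Mrps genes, while the SD over genes was 0.29 for Mrpl and 0.48 for Mrps genes. Of the Mrpl genes 1 was higher and 2 were lower by 1.5-fold, with 43 within, and of the Mrps genes 4 were higher and 2 lower, with 23 within. The Mrps shares, 13.8% higher and 6.90% lower, were near the higher share and under the lower share of all genes (14.1% and 9.42%), and the Mrpl shares, 2.17% and 4.35%, were under both. The sum of Mrpl levels was 3455 RPKM in the Brpf1-null and 3650 RPKM in the wild-type library, and that of Mrps levels 1641 and 1678 RPKM. The ratio of the sums, large over small, was 2.11 in the Brpf1-null and 2.18 in the wild-type library. Mrps genes had median levels of 37.1 RPKM in the Brpf1-null and 29.0 RPKM in the wild-type library. Those of Mrpl genes were 59.7 and 62.8 RPKM. The median Mrps gene was Mrps7 in both libraries, with a log2 change of 0.34. The ratio of the median levels, which follows that gene, was 1.61 in the Brpf1-null and 2.16 in the wild-type library. The wider spread of the Mrps genes thus goes with a lower level of expression, whose part was not tested. Without the members that share sequence, 2 Mrps genes were higher and 1 lower, and the Mrpl counts stayed at 1 and 2. With 1 library per genotype the difference between the subunits has no test.

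Placing Mrps30 and Mrps18a in the large subunit and leaving out Mrps36 left the counts as they were, with 1 higher and 2 lower of 48 large subunit genes and 4 higher and 2 lower of 26 small subunit genes. Mrps36 was at 46.2 RPKM in the Brpf1-null and 49.6 RPKM in the wild-type library. The 3 Mrps18 paralogs, which occupy different places in the particle, were all within 1.1-fold. Mrps18a was at 75.7 RPKM in the Brpf1-null and 79.9 RPKM in the wild-type library, and Mrps18b at 55.8 and 57.9 RPKM. Mrpl12, a stalk protein that also binds the mitochondrial RNA polymerase, was at 95.8 RPKM in the Brpf1-null and 100.2 RPKM in the wild-type library. The 3 members nearest to no change were Mrps18c, Mrpl55 and Mrpl19, with Mrpl55 at 69.5 and 69.6 RPKM and Mrpl19 at 19.9 RPKM in the Brpf1-null against 20.1 RPKM in the wild-type library.

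**Figure D3:**
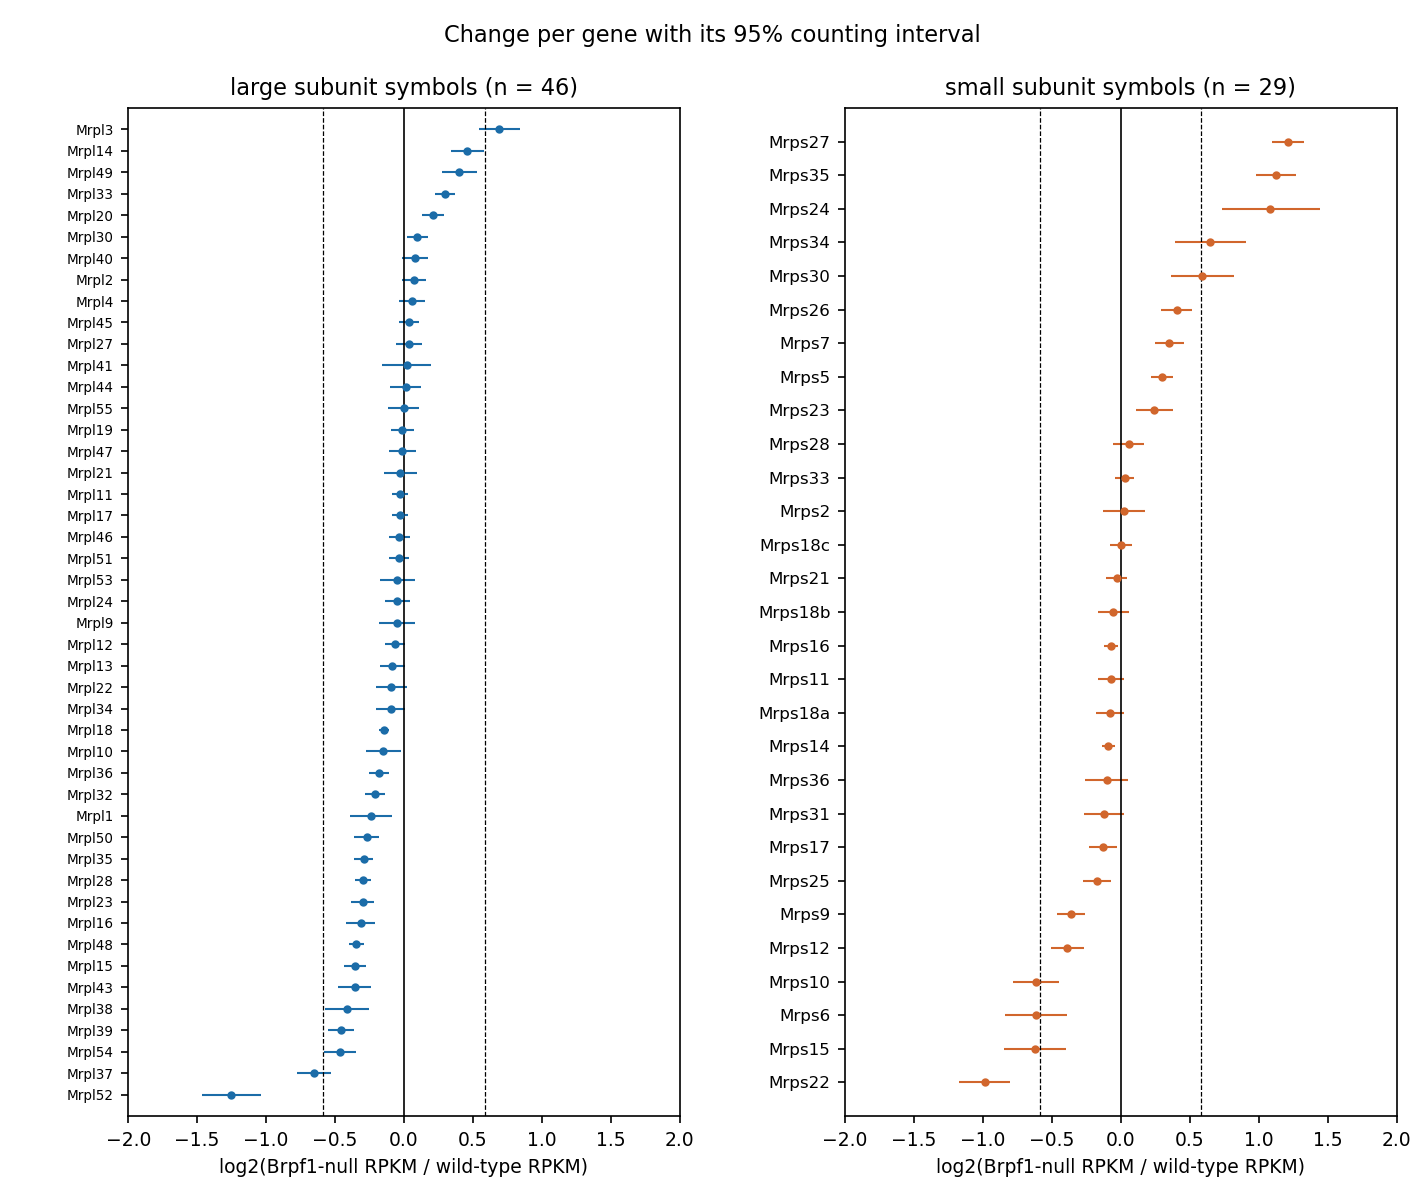
Log2 of Brpf1-null over wild-type RPKM, without the pseudocount, for each of the 46 Mrpl genes (left panel) and 29 Mrps genes (right panel), ordered by value, with bars for the 95% counting interval and dashed lines at 1.5-fold. Most Mrpl genes lie between the dashed lines, and the Mrps panel has points well beyond them on both sides, from Mrps27 at the top to Mrps22 at the bottom.

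By the ribosomal protein nomenclature, which names Mrps18c as a bacterial counterpart and its paralogs Mrps18a and Mrps18b as mitochondria-specific, the 46 members with a bacterial counterpart and the 28 mitochondria-specific ones had median log2 changes of −0.06 and −0.04. Of the bacterial counterparts 2 were higher and 1 was lower by 1.5-fold, and of the mitochondria-specific genes 3 were higher and 3 lower, 10.7% each way, beside 14.1% and 9.42% of all genes. The SD over genes was 0.51 for the mitochondria-specific genes and 0.29 for the bacterial counterparts. Of the 10 mitochondria-specific small subunit genes 3 were higher and 1 was lower, counts too small to set against those shares. Bacterial counterparts were more abundant at the median, at 66.3 RPKM in the Brpf1-null and 68.5 RPKM in the wild-type library, beside 32.2 and 41.1 RPKM for the mitochondria-specific genes, so this split moves with the level of expression and its part was not tested.

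Transcript GC content did not order the members as it ordered the table. Over all 9258 kept genes with a matched transcript the log2 change had a Spearman rho of 0.29 with GC content, and over the 75 members it was 0.01. The median GC content was 52.2% for the 5 higher, 53.0% for the 4 lower and 50.5% for the 66 other members. With transcript length rho was 0.09 over the members and 0.15 over the kept genes. These are descriptions across genes of the same 2 libraries.

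Many of the genes stand head to head with another gene, and in 12 of 25 measured pairs both genes changed in the same direction. In GENCODE M21, 32 of the 75 have a protein-coding gene on the opposite strand whose start lies within 1000 bases. Neither count has a share over all genes to set beside it. Some pairs share exonic bases, for example 12.2% of those of Mrpl46 with Mrps11, 2.58% of those of Mrpl36 with Ndufs6 and 33.4% of those of Mrpl43 with Twnk. Without stated strand counting the values of such pairs are not fully separate. Mrpl46 and Mrps11 face each other, and both were within 1.1-fold, with Mrpl46 at 102.1 RPKM in the Brpf1-null and 104.5 RPKM in the wild-type library and Mrps11 at 75.5 and 79.3 RPKM. Of the 25 neighbours that are no members and reached the filter, 7 were higher, 1 was lower by 1.5-fold and 17 lay within. Among all genes that reached the filter 14.1% were higher and 9.42% lower by that much. The median level of these neighbours was 7.11 RPKM in the Brpf1-null and 5.74 RPKM in the wild-type library. Of all genes up to 20 RPKM, 15.5% were higher and 9.99% lower. Ptcd2, another pentatricopeptide repeat protein of mitochondria, starts 81 bases from Mrps27 and was at 34.8 RPKM in the Brpf1-null and 37.7 RPKM in the wild-type library, while Mrps27 was 2.32-fold higher.

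Other pairs differed in the opposite way, with the neighbour further from equal. Cyb5rl, the neighbour of Mrpl37, was at 4.99 RPKM in the Brpf1-null and 1.21 RPKM in the wild-type library, 4.12-fold higher (2.96 to 5.83), where Mrpl37 was lower. Ncapd2, a condensin subunit beside Mrpl51, was at 37.5 and 17.9 RPKM, 2.09-fold higher (1.98 to 2.21), and Mrpl51 at 38.6 RPKM in the Brpf1-null and 39.5 RPKM in the wild-type library. Klc4, a kinesin light chain gene beside Mrpl2, was at 9.32 and 3.59 RPKM, and Mrpl2 at 91.1 RPKM in the Brpf1-null and 86.6 RPKM in the wild-type library. Ndufs6, a complex I subunit gene beside Mrpl36, was at 137 RPKM in the Brpf1-null and 83.4 RPKM in the wild-type library, and Mrpl36 at 136 and 154 RPKM. A pair that was higher together was Mrps34 and Eme2, a nuclease subunit gene at 4.44 RPKM in the Brpf1-null and 1.64 RPKM in the wild-type library, where Mrps34 shares exonic bases with other genes as given above. These pairs were named after their values were seen.

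**Figure D4:**
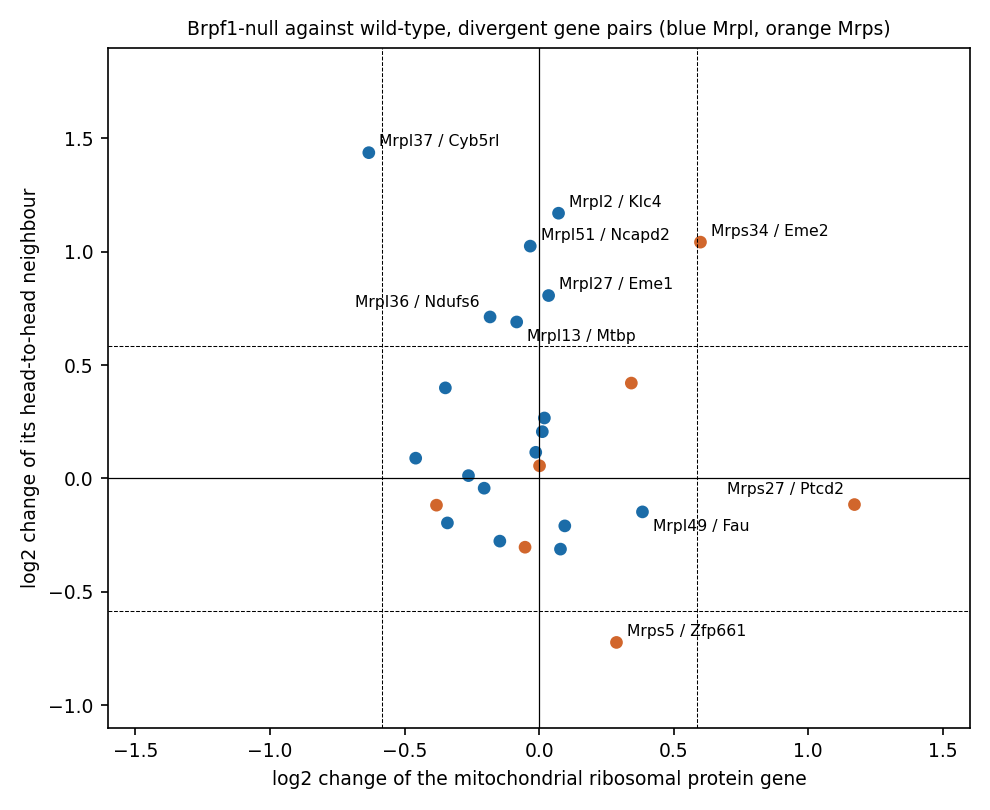
Log2 change of 25 head-to-head neighbours (vertical) against that of the mitochondrial ribosomal protein gene they face (horizontal), with dashed lines at 1.5-fold. Points spread up the vertical axis while most stay near 0 on the horizontal axis, and Mrps27 lies far to the right with Ptcd2 near 0.

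The 7 mitoribosomal proteins that go by other names were all within 1.5-fold, with a median log2 change of −0.03. Among all 9380 genes that reached the filter 76.5% lay within that bound, so 7 of 7 is a small count to set beside it. Ptcd3 (pentatricopeptide repeat protein of the small subunit) was at 31.5 RPKM in the Brpf1-null and 42.2 RPKM in the wild-type library, 1.34-fold lower (1.26 to 1.42), and Mrp63, of the large subunit, at 18.7 and 24.7 RPKM. Dap3, the GTP-binding protein of the small subunit that is also studied in cell death, was at 30.5 and 28.2 RPKM. Ict1, a large subunit protein with peptidyl-tRNA hydrolase activity, was at 68.7 RPKM in the Brpf1-null and 70.4 RPKM in the wild-type library. Thus these genes, which the symbol does not find, also lay inside the 1.5-fold bound, while the counting interval excluded a fold of 1 for 3 of the 7.

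Genes that build the mitoribosome and modify its RNA changed in both directions. Of 26 measured, 5 were higher (19.2%) and 3 lower (11.5%) by 1.5-fold, and their median was 0.07 on the log2 scale. Their median level was low, at 6.65 RPKM in the Brpf1-null and 6.87 RPKM in the wild-type library, and the shares were near the 15.5% and 9.99% of all genes up to 20 RPKM. 2410003K15Rik, the table's symbol for the rRNA methyltransferase gene Mrm1, was at 4.24 RPKM in the Brpf1-null and 0.916 RPKM in the wild-type library, 4.63-fold higher (3.50 to 6.23). Mett11d1 (Mettl17), a small subunit assembly factor, was at 12.7 and 4.85 RPKM, 2.62-fold higher (2.21 to 3.12). Mterfd1 (Mterf3), a regulator of mitochondrial transcription and ribosome assembly, was at 6.43 RPKM in the Brpf1-null and 15.9 RPKM in the wild-type library, 2.47-fold lower (2.11 to 2.92). Of 12 translation factors 1 was higher and 0 were lower: Gfm2, which recycles the mitoribosome, was at 8.47 and 4.71 RPKM, and Tsfm, the exchange factor of the elongation factor Tufm, was at 26.9 RPKM in the Brpf1-null and 40.6 RPKM in the wild-type library. The log2 change of Tsfm was −0.57, just inside the bound, and −0.59, past it, with a pseudocount of 0.1. Of 17 mitochondrial aminoacyl-tRNA synthetases 2 were higher (11.8%) and 0 lower. Aars2 was at 3.40 and 1.19 RPKM and Cars2 at 9.44 RPKM in the Brpf1-null against 5.37 RPKM in the wild-type library. The share of higher genes was 8.33% for the translation factors, so for both lists it was under the 15.5% of all genes up to 20 RPKM.

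Of 17 genes of mitochondrial DNA maintenance, transcription and RNA processing, 2 were higher (11.8%) and 1 was lower (5.88%), with a median of −0.04. Both shares were under the 14.1% higher and 9.42% lower of all genes that reached the filter. Polrmt, the mitochondrial RNA polymerase that transcribes the ribosomal RNAs, was at 7.08 RPKM in the Brpf1-null and 1.99 RPKM in the wild-type library, 3.57-fold higher (3.01 to 4.25). Polg, the mitochondrial DNA polymerase, was at 3.51 and 1.748 RPKM, and Rg9mtd1 (Trmt10c), which processes mitochondrial tRNA ends, at 12.9 RPKM in the Brpf1-null and 29.3 RPKM in the wild-type library, 2.28-fold lower (2.10 to 2.47). Of 7 regulators of nuclear mitochondrial genes 1 was higher (14.3%) and 0 were lower: Myc was at 92.8 and 55.4 RPKM.

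The mitoribosome makes only a small set of the subunits of the respiratory chain and ATP synthase. The genes listed here for these complexes had medians of −0.06 over 37 complex I genes, 0.16 over 12 genes of complexes II and III, −0.12 over 16 complex IV genes and 0.07 over 18 ATP synthase genes. Of all genes that reached the filter 14.1% were higher and 9.42% lower, and of genes over 50 RPKM 5.98% and 6.59%. Of the complex I genes, which were taken by symbol, 1 was higher (2.70%) and 2 were lower (5.41%). Ndufa4l2, with a log2 change of −0.98, was among the lower genes, and its place in complex I was not checked. Of the ATP synthase genes 0 were higher and 1 was lower (5.56%), Atp5d at 102 RPKM in the Brpf1-null and 164 RPKM in the wild-type library. In complexes II and III 4 of 12 genes were higher (33.3%), a share above that of all genes, and 0 were lower. Among them Cyc1 (cytochrome c1) was at 57.6 and 27.9 RPKM, 2.06-fold higher (1.91 to 2.23). In complex IV 2 were higher (12.5%) and 3 lower (18.75%). Of 20 import genes 2 were higher (10%) and 0 lower. Timm50 was at 34.7 RPKM in the Brpf1-null and 20.8 RPKM in the wild-type library and Tomm40 at 10.1 and 5.80 RPKM. The 78 measured cytosolic ribosomal protein genes had a median of −0.25, with 0 higher and 5 lower (6.41%). They have many processed pseudogenes that make single values uncertain. Both kinds of ribosomal protein had a median under the 0.04 of all genes, but among genes over 50 RPKM the median was −0.05 for the mitochondrial ribosomal proteins and −0.07 for all genes.

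**Figure D5:**
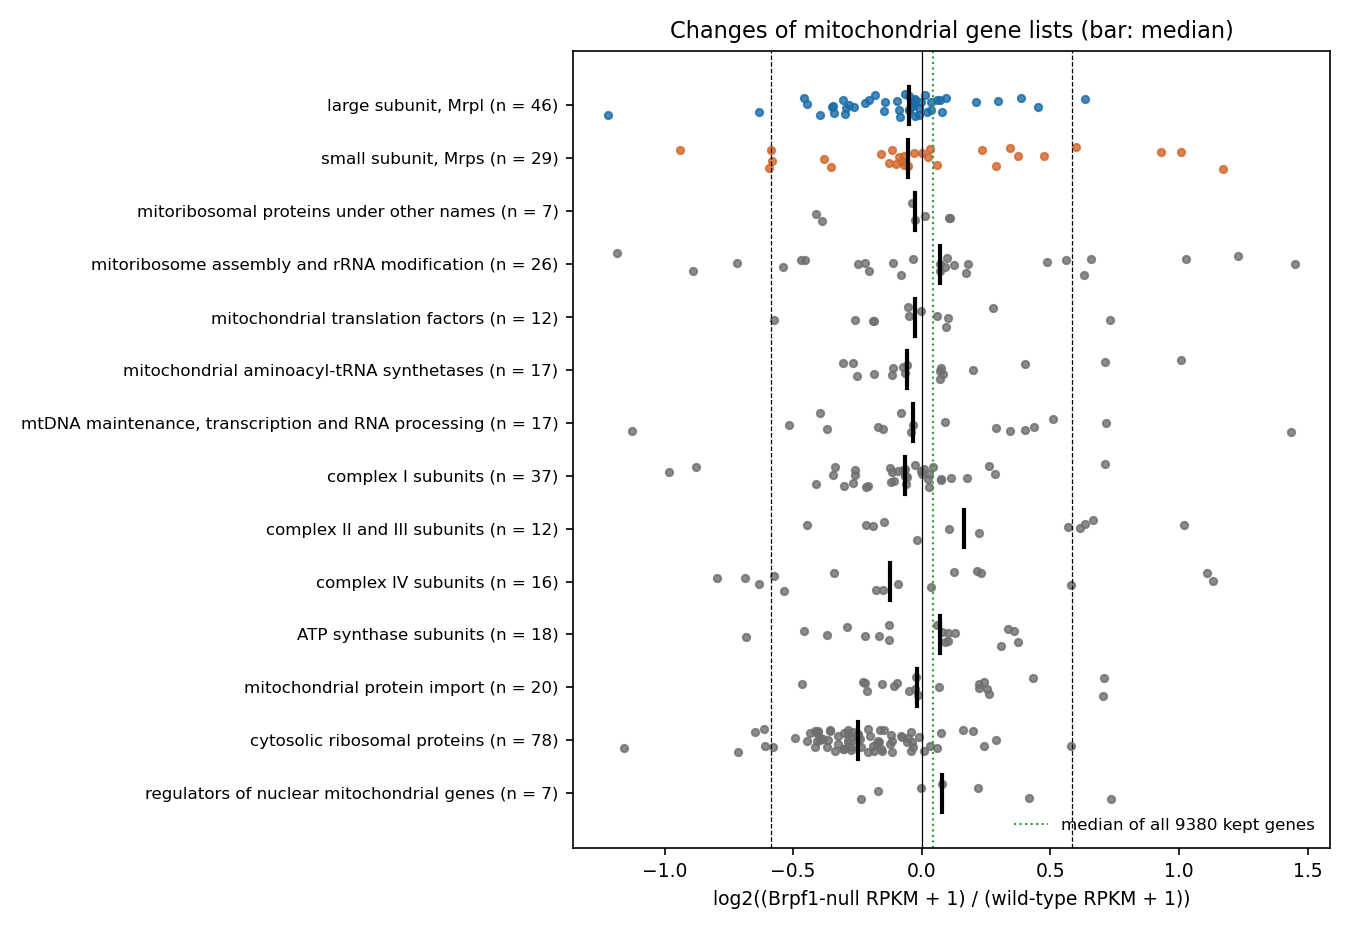
Log2 change with the pseudocount for every measured gene of each mitochondrial list, 1 point per gene, with a black bar at the list's median, dashed lines at 1.5-fold and a dotted green line at the median of all 9380 genes. The Mrpl and Mrps medians lie at −0.05, between the median of the cytosolic ribosomal proteins at −0.25 and that of all genes at 0.04.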

How the data were processed

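Reads were aligned with TopHat to mm9, per the submitters' processing notes; the sources used here do not name the annotation, the counting program or its filters. Deposited values were headed RPKM for pair 1 and FPKM for pair 2, per the file headers, with the same values for all 20207 genes, called RPKM here. The deposited ratio (fold change, wild-type over mutant) and its log2 were not used, and run opposite to the direction here. With 1 library per genotype no test was made. Library sizes were recovered from whole-read spacing: 56.2% of 3082 low values of single-length genes were whole reads within 0.1 read (20.4% with sizes raised by 5%). Reads per gene were estimated from GENCODE M21 transcript lengths (GRCm38, matched for 98.1% of symbols and all 75 members) and give the 95% Clopper-Pearson intervals. The functions were tested on simulated data. Near-identical copies (BLAST 2.17.0, at least 90% identity over 30% of a transcript) or shared exons (over 20%) affect 23 members. Trends were removed with lowess (span 0.3, statsmodels 0.14.6); figures used matplotlib 3.10.9. Alternatives covered the pseudocount, filter, scaling, GC and length trends, fold threshold and shared sequence. Named members were the 10 highest and 10 lowest changes, the 6 most abundant, the 3 nearest to no change, the Mrps18 paralogs, Mrps30, Mrps36, Mrpl12 and up to 3 genes per list; others are marked where they were chosen later. The members and lists were chosen with earlier results of these data known.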

Additional observations from a re-analysis of the deposited data

How the results depend on the processing

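No paired analysis was possible because the tables of both pairs hold the same values, and leaving out a replicate could not be run for the same reason. The number of members at least 1.5-fold higher was 5, and 3 with a pseudocount of 5, with each library centred on its median and with quantile normalization, 2 at a 2-fold threshold, and 3 without the 23 members that share sequence with another gene (an alternative added after seeing the data). The number at least 1.5-fold lower was 4, and 2 with a pseudocount of 5, 9 with the GC trend removed and 1 at a 2-fold threshold. Mrps24, Mrps27 and Mrps35 stayed past 1.5-fold higher, and Mrpl52 and Mrps22 past 1.5-fold lower, under each alternative of scaling, trend, pseudocount and filter that was run. The median log2 change of the members was −0.05, and −0.16 after centring, −0.10 with the GC trend removed and 0.0046 with the length trend removed. After centring it was −0.16 for the large and −0.16 for the small subunit genes. Centring moved the share of higher calls among all genes past 1.5-fold to 44.4%, from 59.9% as deposited. The difference of the subunit medians changed sign with the setting, from −0.10 to 0.0118. Small changes turned sign for Mrps18c, Mrps33 and Dap3 after centring, for Mrps21, Mrpl55 and Ict1 with quantile normalization, for Mrpl19 with the GC trend removed, and for Mrps21, Mrpl55, Mrps18a, Mrps18b, Mrps36 and Mrpl12 with the length trend removed. The cause of these shifts was not tested. Each member had at least 101 estimated reads per library, while no value could be checked in a replicate.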
